A study of Homo sapiens with 7 samples.

Results

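The nuclear genes for the subunits of respiratory complexes I, III and IV and of ATP synthase were examined in NCI-H520 cells, a cell line established from a squamous carcinoma of a human lung, upon silencing of individual deadenylases. Deadenylases are the enzymes that remove the poly(A) tails of mRNAs. Members were chosen by symbol, as genes starting with NDUFA, NDUFB, NDUFC, NDUFS, NDUFV, UQCR, ATP5 or the COX4 to COX8 stems. From 91 matching symbols, 8 assembly factors, 1 pseudogene and 1 antisense RNA were left out, which gave 81 members among 19062 named genes. By symbol they comprised 37 genes of complex I, 8 of complex III, 17 of complex IV and 19 of ATP synthase. The symbol alone decided, so ATP5IF1 and COX7A2L are counted although they need not be subunits. Subunit genes with other symbols, such as CYC1, are not members. The probe of highest mean signal stood for each gene, and 12 members had more than 1 probe.

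The series held 7 single-colour arrays with 1 array per group. Both control groups received a plasmid without a deadenylase target, either the empty vector or a non-target shRNA. The other groups received an shRNA against PARN, CNOT6, CNOT6L, CNOT7 or NOC (nocturnin, gene symbol NOCT). All cells, controls included, were transfected with 6 µg of plasmid, were placed under puromycin at 6 µg/mL from 12 h and were harvested at 72 h. Silencing was by transfection of 1 cell line, and the labels name no replicate cultures. They give the CNOT6L shRNA the accession of NOC, so it is not certain which sequence the library labelled CNOT6L shRNA carried. Cells without plasmid are not analysed here. On the slide, row 1 held both controls with PARN and CNOT6 shRNA, and row 2 held CNOT6L, CNOT7 and NOC shRNA. Row 2 held no control, so slide row and shRNA cannot be told apart for its 3 arrays.

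The mitochondrial respiratory chain passes electrons from NADH and succinate to oxygen and pumps protons across the inner membrane, and ATP synthase uses the returning protons to make ATP. Complex I oxidises NADH, complex III passes electrons from ubiquinol to cytochrome c, and complex IV passes them to oxygen. Most subunits are encoded in the nucleus, and the remainder, including the catalytic core of complex IV, in the mitochondrial genome. The transcription factors NRF1, GABP of the ETS family and YY1 are known to act at promoters of many nuclear respiratory genes.

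A level is a probe's processed signal on the log2 scale relative to the 75th percentile of its array, so a level of 0 is the 75th percentile of all gene probes. Differences are log2 differences between arrays for the same probe. Probes differ in how well they hybridise, so levels of different genes do not rank their mRNA. The 75th percentile of signal was between 858 (CNOT6 shRNA) and 2372 (CNOT7 shRNA), and 82.0% to 91.5% of the 42405 gene probes were above background. The targeted mRNA was lowest on its own array in all 5 cases. It was at 45.1% of the control mean for PARN, 87.9% for CNOT6, 64.7% for CNOT6L, 56.1% for CNOT7 and 76.0% for NOCT. CNOT6L and CNOT7 had 2 probes each, and the value is that of 1 of them. The CNOT6 mRNA differed by -0.23 from empty vector and by -0.14 from non-target, and NOCT by -0.60 and -0.20. Silencing below therefore names the shRNA received, not a measured degree of knockdown. Among the squamous markers SOX2, KRT6A, PKP1 and DSC3 were above background on all 7 arrays, KRT5 on 4, TP63 on 2 and DSG3 on 0. Of 6 fibroblast markers 4 were above background throughout and COL3A1 on 0 arrays, and the 4 measured leukocyte markers were above background throughout. Over the 7 arrays the summed level of each list ranged from 5.36 to 6.14 for squamous, 4.77 to 5.55 for fibroblast and 0.75 to 1.23 for leukocyte markers, and these sums do not compare between lists. The part of these markers in the results below was not tested.

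Promoters are shown for 4 members with higher levels on the row 2 arrays and for COX6A1, whose level was not higher there. They were picked after the values were seen, to show a match of each motif. The sequences are from RefSeq on GRCh38.p14 and run 5′ to 3′ along the gene, from 120 bases before the annotated start to 20 bases after it. Capitals mark matches, on either strand, to GCGCA, any base and GCGC in a row (NRF1), to CCGGAAG (ETS) and to AANATGGCG (YY1). A match on the opposite strand appears as the reverse complement, as for NRF1 in NDUFA11 and ETS in COX6A1.
NDUFA11, chr19:5903771-5903910, minus strand: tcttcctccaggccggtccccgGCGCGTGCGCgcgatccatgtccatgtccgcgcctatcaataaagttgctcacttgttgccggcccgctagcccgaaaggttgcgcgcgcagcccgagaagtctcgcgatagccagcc
ATP5F1C, chr10:7788057-7788196, plus strand: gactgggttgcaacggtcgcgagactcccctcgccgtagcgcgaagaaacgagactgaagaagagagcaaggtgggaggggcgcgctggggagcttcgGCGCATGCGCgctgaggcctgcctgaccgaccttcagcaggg
NDUFB7, chr19:14572047-14572186, minus strand: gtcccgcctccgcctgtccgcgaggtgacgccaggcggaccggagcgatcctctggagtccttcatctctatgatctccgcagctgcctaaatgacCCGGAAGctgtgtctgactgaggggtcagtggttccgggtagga
COX5B, chr2:97645942-97646081, plus strand: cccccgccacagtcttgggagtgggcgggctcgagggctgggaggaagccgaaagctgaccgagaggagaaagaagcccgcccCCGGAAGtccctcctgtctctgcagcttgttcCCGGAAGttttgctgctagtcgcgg
COX6A1, chr12:120437993-120438132, plus strand: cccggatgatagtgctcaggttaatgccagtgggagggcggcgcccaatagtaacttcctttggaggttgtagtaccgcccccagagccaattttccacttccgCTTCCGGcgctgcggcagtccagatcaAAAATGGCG

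NDUFA11 and ATP5F1C each held 1 NRF1 match, NDUFB7 held 1 ETS match and COX5B held 2. COX6A1 held 1 ETS and 1 YY1 match. Promoters of 250 bases before to 50 after the start were at hand for 67 members and searched on both strands. The NRF1 motif was in 15 of them (22.4%, against 8.58% of 15843 promoters of protein-coding genes), the ETS motif in 18 (26.9% against 14.2%) and the YY1 motif in 15 (22.4% against 4.81%). Any of the motifs was in 38 (56.7% against 24.2%). These are letter matches and not evidence of binding. Among detected members, the median difference between the slide rows was 0.23 for 15 genes with an NRF1 match and 0.18 for 51 without. It was 0.21 for both 18 genes with an ETS match and 48 without, and 0.18 for 15 genes with a YY1 match against 0.22 for 51 without.

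Respiratory chain genes were among the well-detected genes of these arrays. Of 81 members 80 were above background on all 7 arrays and 75 lay among the 4766 brightest of the named genes. COX7B2, an isoform of a small complex IV subunit that is known from testis, was not above background on any array. No member probe was saturated. The printing error was small, with a median SD between spots of 0.04 to 0.07 on the 7 arrays over the 28 members printed on more than 1 spot. The empty-vector and non-target arrays differed by a median of 0.10 in either direction. In these bulk samples fewer cells of a kind and less RNA per cell cannot be told apart.

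No member differed 2-fold from both controls with any shRNA. The counts were 0 of 81 higher and 0 of 81 lower for PARN, CNOT6, CNOT6L, CNOT7 and NOC shRNA. Over all named genes the share called higher was 0.194% for PARN, 0.226% for CNOT6, 0.268% for CNOT6L, 0.247% for CNOT7 and 0.362% for NOC shRNA. The share called lower was 0.367%, 0.241%, 0.582%, 0.671% and 0.934% in the same order. With 1 array per group these are differences between arrays with no replicate check. At 1.5-fold COX8C was higher upon CNOT6 silencing (1 member, background 1.75%) and COX5B and NDUFAB1 upon CNOT6L silencing (2 members, background 1.9%). COX6A2 was higher at 1.5-fold upon CNOT7 silencing (1 member, background 1.47%) and upon NOC silencing (1 member, background 1.83%). The count was 0 for PARN shRNA (background 0.346%), and 0 members were lower at 1.5-fold with any shRNA, against backgrounds of 1.55% for PARN, 1.53% for CNOT6, 2.34% for CNOT6L, 2.65% for CNOT7 and 3.15% for NOC.

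Smaller differences lay mostly in 1 direction on 4 of the shRNA arrays. Upon CNOT6L silencing 68 members were above both controls and 4 below both, against 33.8% and 26.1% of all named genes and 51.9% and 23.7% of the 4766 brightest. Upon CNOT7 silencing 62 were above both controls and 5 below, against 32.7% and 27% of all named genes and 50.4% and 23.4% of the brightest. NOC silencing gave 60 above and 4 below, against 31.3% and 29.2% of all named genes and 50.5% and 24.6% of the brightest. For CNOT6 shRNA 60 members were above and 10 below, against 29.3% and 29.2% of all named genes and 35.3% and 32% of the brightest. The PARN shRNA array stood apart, with 18 members above both controls and 39 below, against 17.8% and 31.8% of all named genes and 21.9% and 35.5% of the brightest. All 5 shRNA arrays were compared with the same control arrays, so these counts are not independent of each other.

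The median difference from the control mean over the 80 detected members was -0.06 for PARN shRNA, 0.19 for CNOT6, 0.29 for CNOT6L, 0.22 for CNOT7 and 0.24 for NOC. With 1 control alone the PARN median was -0.034 against empty vector and -0.073 against non-target. Over the 4766 brightest named genes it was -0.02, 0.01, 0.11, 0.10 and 0.10 in the same order. The empty-vector array differed from the non-target array by a median of -0.02. The choice of scaling set the size of these shifts. With quantile normalization the medians over members were -0.03, 0.067, 0.16, 0.15 and 0.13. Without any scaling the CNOT6 median turned to -0.79, beside -0.97 for all named genes, and that array was the dimmest. Without scaling the others were -0.37 for PARN, 0.64 for CNOT6L, 0.71 for CNOT7 and 0.42 for NOC shRNA, beside -0.35, 0.40, 0.51 and 0.19 for all named genes.

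**Figure D1:**
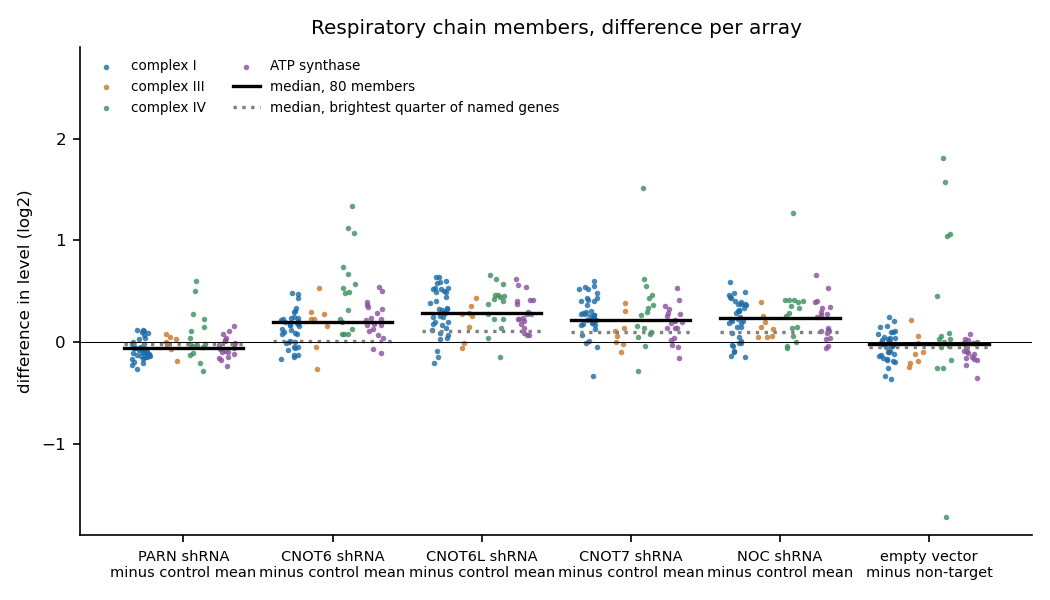
Difference in level (log2) of each detected member from the mean of both controls for the 5 shRNA arrays, and of the empty-vector array from the non-target array, with points coloured by complex. Black lines are medians over the 80 detected members and dotted grey lines medians over the 4766 brightest named genes. The black line lies above the grey line for CNOT6, CNOT6L, CNOT7 and NOC shRNA and below it for PARN shRNA.

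Each member was also ranked over the arrays. The CNOT6L shRNA array was the highest for 36 of the 80 detected members, followed by CNOT6 shRNA for 18, CNOT7 for 12 and NOC for 11. The PARN shRNA array was the lowest for 36, the non-target array for 17 and the empty-vector array for 15. No member had its highest level on the PARN shRNA array. These ranks are not given for all named genes, so they are not read as particular to the members. Of the 4766 brightest named genes, 51.9% were above both controls and 23.7% below both with CNOT6L shRNA. With PARN shRNA 21.9% were above both and 35.5% below both.

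Complex I genes were mostly above both controls on the row 2 arrays. Their median difference from the control mean was 0.31 upon CNOT6L silencing, 0.26 upon CNOT7 silencing and 0.23 upon NOC silencing, and 32, 34 and 28 of the 37 were above both controls. It was 0.16 upon CNOT6 silencing and -0.10 upon PARN silencing, where 23 of 37 lay below both controls. Of the 4766 brightest named genes 51.9%, 50.4% and 50.5% were above both controls on the row 2 arrays in that order, and 35.5% were below both with PARN shRNA. The CNOT6 median was 0.079 against the non-target array alone. The 7 nuclear genes of the catalytic core, which carry the flavin and the iron-sulfur clusters or line the quinone site, had medians of 0.08 for CNOT6L, 0.21 for CNOT7, 0.01 for NOC, 0.00 for CNOT6 and -0.12 for PARN shRNA. Against empty vector and non-target alone the CNOT6L core median was 0.13 and 0.12 and the NOC core median 0.036 and 0.026.

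Among the core genes, NDUFV2, an iron-sulfur subunit of the NADH-oxidising arm, had the widest separation of the slide rows. Its level was 3.88 on the empty-vector array, 4.05 on non-target, 3.69 with PARN shRNA, 4.13 with CNOT6, 4.55 with CNOT6L, 4.39 with CNOT7 and 4.44 with NOC. The row 2 arrays all lay above the row 1 arrays, and PARN shRNA was the lowest. NDUFV1, its flavin-bearing partner, was at 4.85, 4.75, 4.75, 4.74, 4.87, 5.07 and 4.67 in the same order of arrays. It was above both controls with CNOT6L and CNOT7 shRNA and below both with PARN, CNOT6 and NOC shRNA, by less than the printed precision for PARN. NDUFS1, the largest subunit of that arm, was at 4.15, 4.15, 4.02, 4.15, 4.06, 4.16 and 4.11, with CNOT6L shRNA below both controls by at least 0.09. NDUFS8, a core iron-sulfur subunit, was lowest upon CNOT6 silencing, 0.15 below the nearer control, at 4.15 against 4.33 and 4.30 in the controls.

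Among accessory subunits, NDUFAB1, the mitochondrial acyl carrier protein, was 0.63 above the nearer control upon CNOT6L silencing, the most of any member. Its level was 4.72 on the empty-vector array, 4.75 on non-target, 4.64 with PARN shRNA, 4.95 with CNOT6, 5.37 with CNOT6L, 5.22 with CNOT7 and 5.11 with NOC. NDUFS5 went the other way, at 7.36, 7.69, 7.63, 8.01, 7.32, 7.19 and 7.37 in that order. It was highest upon CNOT6 silencing and lowest upon CNOT7 silencing, where it lay 0.17 below the nearer control. NDUFC1 was 0.20 below the nearer control upon PARN silencing, at 4.98 against 5.19 and 5.20. NDUFA3 was above both controls upon PARN silencing, by 0.11 at the nearer control, with 3.45 against 3.32 and 3.34. NDUFA10 was 0.09 below the nearer control upon CNOT6L silencing, at 3.92 against 4.01 and 4.13, whereas its other probe lay between the controls there, 0.055 above their mean. NDUFA2 was 0.07 below upon NOC silencing, at 4.84 against 4.94 and 4.90. These last differences are no larger than the median difference between the control arrays over members, 0.10.

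The 8 complex III genes had median differences of 0.27 for CNOT6L, 0.22 for CNOT6, 0.14 for NOC, 0.08 for CNOT7 and -0.01 for PARN shRNA. With 1 control alone they were 0.15 for CNOT6 against non-target, 0.031 for CNOT7 against empty vector, and 0.016 and -0.11 for PARN against empty vector and non-target. UQCRC1, a core structural subunit, had the narrowest range of all members, 0.11 over the 7 arrays. UQCRC2, the other core structural subunit, was lowest with CNOT6 shRNA, at 3.46 against 3.60 on the empty-vector and 3.85 on the non-target array. UQCRH, the acidic hinge protein, was at 6.06, 6.08, 6.14, 6.60, 6.34, 6.07 and 6.22 from empty vector to NOC shRNA, and a second probe for it differed by 0.18 between slide rows where the brighter probe differed by -0.01.

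In complex IV the widest ranges were those of isoforms with restricted tissues. The median over 16 detected genes was 0.49 for CNOT6, 0.41 for CNOT6L, 0.28 for CNOT7, 0.31 for NOC and -0.02 for PARN shRNA. Against the empty-vector array alone it was 0.22 for CNOT6 and 0.17 for CNOT7, and the PARN median turned to 0.02 against the non-target array alone. COX5B, a zinc-binding subunit, was at 4.21 on the empty-vector array, 4.18 on non-target, 4.07 with PARN shRNA, 4.42 with CNOT6, 4.82 with CNOT6L, 4.74 with CNOT7 and 4.60 with NOC. All row 2 arrays were above all row 1 arrays for this gene. COX6A1, the ubiquitous isoform of subunit 6A, was at 6.72, 6.97, 6.99, 7.38, 6.69, 6.55 and 6.79 in the same order, lowest with CNOT7 shRNA and highest with CNOT6 shRNA. COX7C was at 6.19, 5.74, 6.24, 6.54, 6.36, 6.29 and 6.37, with the non-target array the lowest. COX7A2 was at 6.05 and 6.05 in the controls and at 6.15, 6.53, 6.47, 6.35 and 6.44 with the shRNAs, so that its groups did not overlap.

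COX4I2, COX6A2, COX7A1, COX8C and COX6B2 are isoforms known from lung, heart and skeletal muscle or testis, and their ranges of 1.58 to 2.20 were the widest of all members. They were also the 5 members that differed 2-fold between the control arrays. COX4I2, COX6A2, COX7A1 and COX8C were higher on the empty-vector array (4 members, background 10.8% of all named genes). COX6B2 was lower there (1 member, background 0.619%), but only by its brighter probe. Its other probe, also above background on all 7 arrays, was 0.15 higher on the empty-vector array than on non-target and had a range of 0.51. COX6A2, the muscle isoform of subunit 6A, was at -3.58 on the empty-vector array, -4.62 on non-target, -4.38 with PARN shRNA, -3.43 with CNOT6, -3.44 with CNOT6L, -2.59 with CNOT7 and -2.83 with NOC. COX8C, the testis isoform of subunit 8, was at -0.21, -1.27, -0.14, 0.38, -0.17, -0.28 and -0.48 in the same order. By its brighter probe COX6B2 was at 0.14, 1.86, 1.23, 2.34, 1.04, 0.96 and 1.41, with the empty-vector array the lowest, and by the other probe at -1.89, -2.03, -2.05, -1.54, -1.76, -1.95 and -2.01, with CNOT6 shRNA again the highest and PARN shRNA the lowest. A difference from 1 control alone is therefore not read as a difference from control for these genes.

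**Figure D2:**
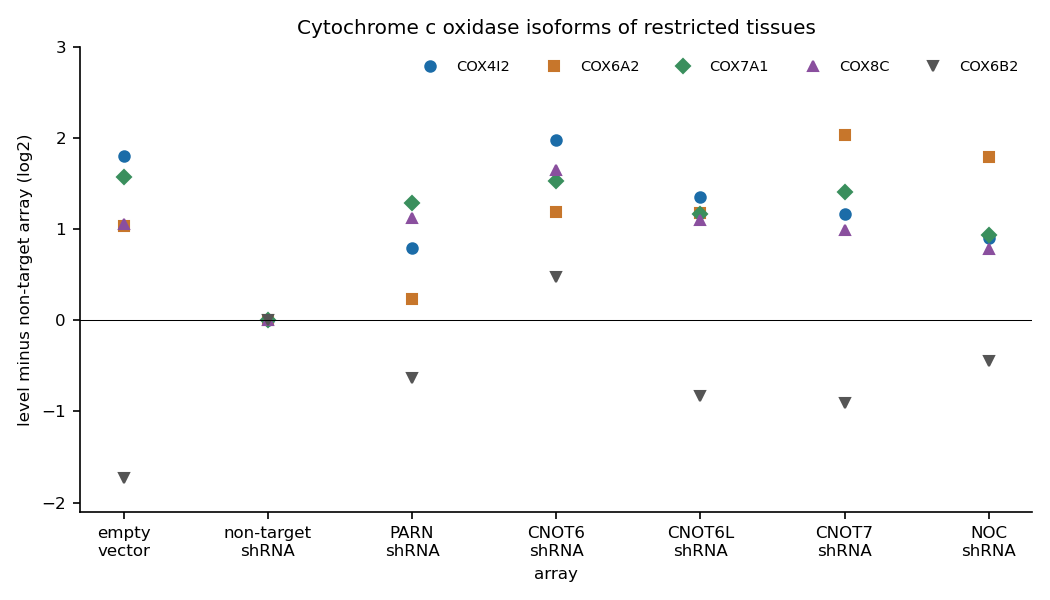
Level relative to the non-target array (log2) of the 5 detected complex IV isoforms of restricted tissues on each of the 7 arrays, 1 point per gene and array. For COX4I2, COX6A2, COX7A1 and COX8C the non-target array is the lowest of all 7, and for the brighter probe of COX6B2, which is plotted, the empty-vector array is.

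ATP synthase genes lay above both controls for 18 of 19 upon CNOT6L silencing, 16 upon CNOT6 silencing, 15 upon CNOT7 silencing and 16 upon NOC silencing. Of the 4766 brightest named genes 51.9%, 35.3%, 50.4% and 50.5% were above both controls in that order. The ATP synthase medians were 0.27, 0.21, 0.19 and 0.25 in the same order. For PARN shRNA the median was -0.07, with -0.0034 against the empty vector alone and -0.10 against non-target alone. ATP5F1C, the gamma subunit of the rotating stalk, had the widest difference between slide rows among members other than the isoforms above. Its level was 3.10 on the empty-vector array, 3.26 on non-target, 2.94 with PARN shRNA, 3.29 with CNOT6, 3.79 with CNOT6L, 3.70 with CNOT7 and 3.84 with NOC. ATP5MC1, which encodes the c-ring subunit, was at 2.95 and 2.92 in the controls and at 3.09, 3.10, 3.49, 3.35 and 3.27 with the shRNAs. It was the highest member upon PARN silencing by the nearer control, 0.14 above it. ATP5MK, a small membrane subunit, was at 5.65 and 5.67 in the controls, 5.56 with PARN shRNA and between 5.91 and 6.20 with the others.

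The 5 shRNA arrays were then compared with both controls. No member passed limma's test at an adjusted p under 0.05, and no probe of the 38090 tested did (0% called). The smallest adjusted p among members was 0.998 by limma. At an unadjusted p under 0.05 limma gave 3 members higher (3.75%), ATP5MC1, COX7A2 and COX7C, and 0 lower. The shares were 1.93% and 1.81% of all probes tested and 2.81% and 0.713% of the brightest named genes. The differences were 0.40 for COX7C, 0.34 for COX7A2 and 0.32 for ATP5MC1. Of 80 members 75 had a positive difference, a count given without its share over all named genes. The spread in this fit is that between different shRNAs and between control plasmids. The median difference was 0.18 over members and 0.05 over the brightest named genes. With slide row as a second term 57 of 80 members had a positive difference, and their median was 0.059. Without the PARN shRNA array 34 members had an unadjusted p under 0.05 by limma, as did 3873 of 38090 probes. Without any other shRNA array 2 or 3 members did. All 5 shRNA arrays were above both controls for 9 members, ATP5MC1, ATP5MC2, ATP5MJ, ATP5PO, COX7A2, COX7C, COX8A, NDUFB5 and NDUFB9 (background 2.47% of all named genes and 4.7% of the brightest). A dimmer NDUFB5 probe lay between the controls with PARN shRNA. For 0 members all 5 were below (background 3.76%).

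Between the slide rows, 13 of 80 members were higher on the row 2 arrays by limma at an adjusted p under 0.05 and 0 were lower. That is 16.2% of the members tested, against 3.35% of all probes tested and 11.1% of the brightest named genes called higher, and 3.38% and 3.73% called lower. Of the 13, 9 encode complex I subunits, 2 complex IV subunits and 2 ATP synthase subunits. The 3 arrays of row 2 carry different shRNAs, and since no control lay in row 2 the contrast holds slide position and shRNA together. The NOC shRNA image was also extracted on another day than the rest.

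NDUFA11, a membrane-arm subunit of complex I, had the smallest adjusted p. Its level was 3.98 on the empty-vector array, 4.12 on non-target, 3.94 with PARN shRNA, 4.17 with CNOT6, 4.68 with CNOT6L, 4.65 with CNOT7 and 4.54 with NOC. The row 2 mean of 4.63 ± 0.07 (SD, n = 3) lay 0.57 above the row 1 mean of 4.05 ± 0.11 (SD, n = 4), with a standard error of 0.09 and an adjusted p of 0.0102 by limma. ATP5F1C differed by 0.63 with an adjusted p of 0.0125 by limma. NDUFB7, NDUFB6 and NDUFB10, accessory subunits of the membrane arm, differed by 0.45, 0.55 and 0.48. COX5B differed by 0.50 and COX4I1, the ubiquitous isoform of subunit 4, by 0.39. NDUFV2 differed by 0.53, NDUFAB1 by 0.47, NDUFC2 by 0.43, NDUFA12 by 0.44, NDUFA1 by 0.41 and ATP5MC1 by 0.35, the last with an adjusted p of 0.0496 by limma. For NDUFC2 a dimmer probe differed by -0.11, and for NDUFA12 by 0.18.

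**Figure D3:**
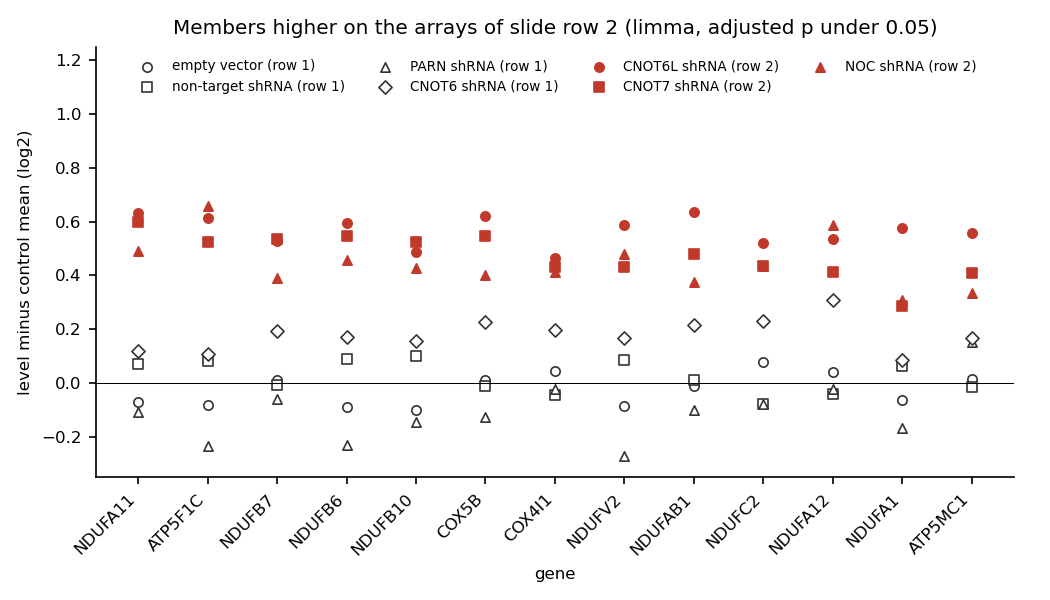
Level minus the control mean (log2) of the 13 members that limma called higher on the row 2 arrays, ordered by adjusted p, with open symbols for the 4 arrays of row 1 and filled symbols for the 3 arrays of row 2. All filled symbols lie above all open symbols in each gene.

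The call rested on few arrays. Without the CNOT6L shRNA or the CNOT7 shRNA array limma called 0 members, with 0.084% and 0.291% of all probes higher, and without the NOC shRNA array 1, with 0.215%. It called 2 when empty vector was left out and 2 when PARN shRNA was, with 1.43% and 0.753% of all probes higher. It called 27 without the CNOT6 shRNA array, with 4.69%, and 16 without the non-target array, with 7.79%. Without a test, all 3 row 2 arrays were above all 4 row 1 arrays for 30 members (background 15.1% of all named genes and 29% of the brightest) and below for 0 (background 10.6% and 9.8%). Of the 30, 20 were complex I genes, 1 was a complex III gene, 3 were complex IV genes and 6 were ATP synthase genes. The median difference between rows was 0.21 over members, 0.11 over the 4766 brightest named genes and 0.03 over all named genes, and 0.12 over members with quantile normalization. Within row 2, 0 members differed 2-fold from both row mates in any of the 3 arrays. The background shares higher and lower were 0.572% and 0.0997% for CNOT6L, 0.215% and 0.063% for CNOT7 and 0.21% and 0.189% for NOC shRNA.

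Several of the brightest member probes were lower on the row 2 arrays and highest on the CNOT6 shRNA array. NDUFS5 and COX6A1 were lower on row 2 by 0.38 and 0.34, with adjusted p of 0.13 and 0.18 by limma, and ATP5F1E, the epsilon subunit, and ATP5MG were lower by 0.20 and 0.06. All 4 had their highest level on the CNOT6 shRNA array. For ATP5MG the row 2 mean of 6.86 was below that array alone (7.19). It was above the controls (6.81 and 6.83) and PARN shRNA (6.84). The 27 brightest detected members had a median of 0.27 upon CNOT6 silencing, against 0.14 for the 26 of middle signal and 0.13 for the 27 dimmest. Upon CNOT7 silencing the medians were 0.18, 0.26 and 0.22. The part of probe signal in these differences was not tested.

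**Figure D4:**
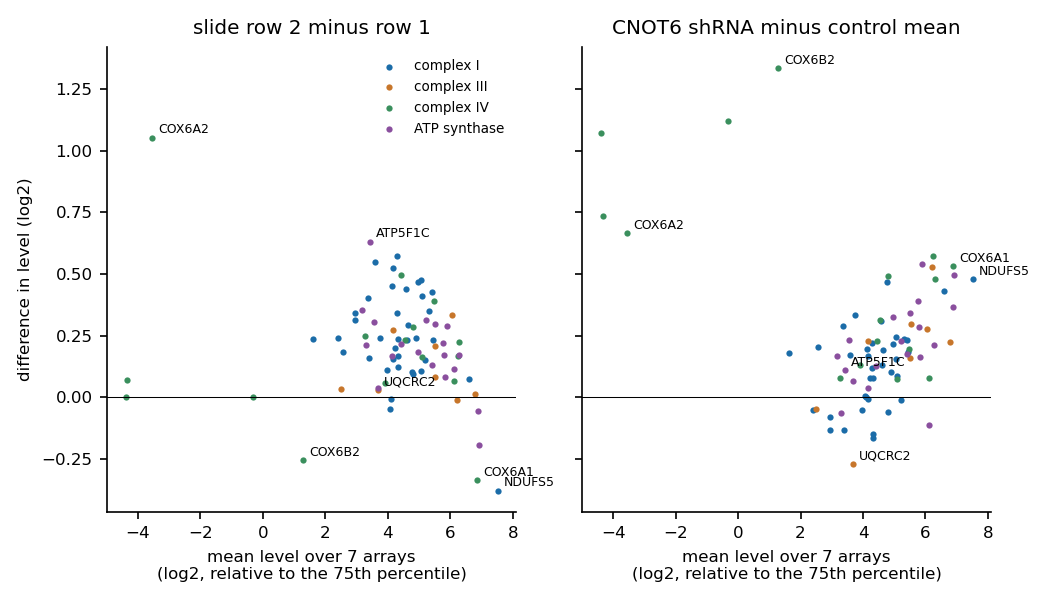
Mean level over the 7 arrays (log2, relative to the 75th percentile) against the difference between slide rows (left) and the difference of the CNOT6 shRNA array from the control mean (right), 1 point per detected member, coloured by complex. On the left NDUFS5 and COX6A1, among the probes of highest level, lie below 0, and on the right they lie above 0 at 0.48 and 0.53.

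Other genes of the pathway were compared in the same way. Complex II, which feeds electrons from succinate, has only nuclear subunits. SDHB, SDHC and SDHD were higher on row 2 by 0.37, 0.38 and 0.36, with adjusted p of 0.035, 0.026 and 0.039 by limma. SDHA, the flavoprotein subunit, was the exception, with all row 2 arrays below all row 1 arrays and a difference of -0.32 that did not pass the test (adjusted p of 0.071 by limma). CYCS, cytochrome c, differed by 0.25 with an adjusted p of 0.22 by limma. Of 39 measured assembly factors 0 were higher and 1 was lower by limma, NDUFAF5 by 0.47 with an adjusted p of 0.020. The medians over the 38 detected factors were 0.09 for CNOT6L, CNOT7 and NOC, -0.06 for CNOT6 and -0.02 for PARN shRNA, with -0.03 and -0.14 for CNOT6 against empty vector and non-target alone. None of the 13 subunits encoded by the mitochondrial genome was matched to a named probe, so they are not analysed here.

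Of 12 regulators of respiratory genes, 1 was higher and 3 were lower on row 2 by limma. GABPA, the DNA-binding subunit of GABP, was higher by 0.60 with an adjusted p of 0.023. The coactivators PPARGC1A and PPRC1 were lower, with differences of -0.75 and -0.49, and PPARGC1A was the 1 regulator that lay 2-fold below both controls with NOC shRNA. Also lower was TFB1M, a mitochondrial rRNA methyltransferase, with a difference of -0.44. NRF1 and YY1 differed by 0.27 and 0.15 and did not pass the test. Among 14 genes of the tricarboxylic acid cycle 2 were higher by limma and 0 lower, MDH2 by 0.43 and FH, fumarase, by 0.36.

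Proteasome subunits and cytosolic ribosomal proteins, other large sets of housekeeping genes, were set beside the respiratory chain genes. The proteasome median over 38 detected genes was -0.03 for PARN, 0.11 for CNOT6, 0.22 for CNOT6L, 0.16 for CNOT7 and 0.17 for NOC shRNA. By limma 9 were called higher on row 2 and 0 lower, against 3.35% and 3.38% of all probes tested. Cytosolic ribosomal protein genes, 77 in all, had medians of 0.05, 0.47, 0.05, -0.12 and 0.01 in that order, with 1 called higher and 0 lower. With quantile normalization the ribosomal medians were -0.03, 0.01, 0.10, 0.12 and 0.06, so that the PARN and CNOT7 values turned in sign. Without scaling they were -0.25, -0.51, 0.41, 0.37 and 0.20. Against the non-target array alone the PARN, CNOT6L and NOC values also turned in sign, to -0.037, -0.048 and -0.068. All row 2 arrays were above all row 1 arrays for 15 of 38 proteasome genes (39.5%) and below for 2. The same was so for 37.5% and 0% of the 80 detected members, and for 2 and 8 of the 77 ribosomal genes. The higher levels on row 2 were thus not particular to the respiratory chain genes. No test of the difference between these groups and the respiratory chain genes was made.

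**Figure D5:**
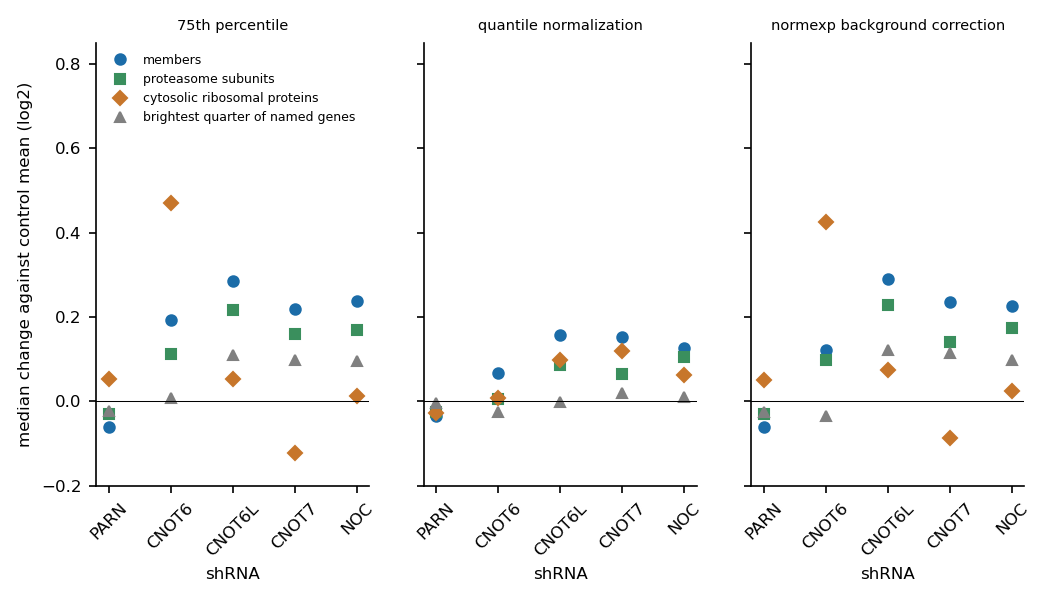
Median difference from the control mean (log2) on each shRNA array for the 80 detected members, 38 proteasome genes, 77 cytosolic ribosomal protein genes and the 4766 brightest named genes, after scaling to the 75th percentile, quantile normalization and normexp background correction. For CNOT6 shRNA the members' median is 0.19, 0.067 and 0.12 under these settings and the ribosomal median 0.47, 0.01 and 0.43.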

How the data were processed

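The 7 arrays measured total RNA, labelled with Cy3. Per the file headers, the authors extracted intensity values with Agilent Feature Extraction 10.7.3.1, with the median, local background and processed signals of each spot. The deposited series table holds log2 values. It was compared with the scanner files over the probes above background on all 7 arrays. Apart from 1 shift per array, its differences between arrays were within 0.02 of theirs for 100% of these probes. The table was taken as centred on the median per probe. Its column medians were 0.05 for the empty-vector array, -0.02 for non-target, 0.09 for CNOT6 shRNA and 0 for the others. The scale was settled in this way and no direction was needed. A centring per probe cancels in differences between arrays, so the comparison could not show it.

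Control spots and spots marked as outliers were left out, spots of a probe were averaged, log2 of the processed signal was taken and the 75th percentile of each array was subtracted. To be above background on an array, a probe needed 50% or more of its spots to carry the software's mark. Of 42405 gene probes 24826 were named through a RefSeq table of GRCh38.p14, with the CNOT6 probe named by the accession in the labels. Groups came from the sample titles. A gene was called for 1 array when it differed 2-fold, in the same direction, from both controls. Named genes were the 2 highest and 2 lowest members per shRNA by the nearer control, the 5 of widest range, the 3 highest and 3 lowest by the difference of shRNA arrays from controls among members whose groups did not overlap (0 were lower), and members not above background anywhere. Other genes were named where a limma call or a list made them part of a count, or after their values were seen. The limma 3.58.1 fits in R 4.3.3 were two-sided, used lmFit and eBayes with trend, were adjusted by Benjamini-Hochberg over the 38090 probes that 2 or more arrays showed above background, and were tested on simulated data. The members, lists and tests were chosen with earlier results of these data known. The number of arrays limits the precision. Replicate cultures were not part of the design, so p-values measure the spread between arrays of different plasmids. The alternatives were other scalings, normexp background correction, the series table, other probe and spot rules, a 1.5-fold threshold and leaving out single arrays. The normexp alternative used the median signal with an offset of 50, since no mean signal was among the columns used.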

Additional observations from a re-analysis of the deposited data

How the results depend on the processing

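No paired analysis was possible because each group has 1 array. The 2-fold counts of 0 moved when only 1 control was used, to 2 and 2 for PARN, 1 to 4 for CNOT6, 0 to 4 for CNOT6L, 0 to 3 for CNOT7 and 1 and 1 for NOC shRNA. At 1.5-fold they were 1 for CNOT6, 2 for CNOT6L, 1 for CNOT7 and 1 for NOC. Without scaling they were 3 for CNOT6 and 1 for CNOT7, and with quantile normalization 1 for CNOT7 and 1 for NOC. Except at 1.5-fold, no share over all named genes is given for these counts, so they are not read as results about the members. Between the control arrays alone 10.8% of all named genes were 2-fold higher with empty vector and 0.619% lower. The median differences moved with quantile normalization to 0.067 for CNOT6, 0.16 for CNOT6L and 0.13 for NOC, and with normexp to 0.12 for CNOT6. Without scaling they were -0.37 for PARN, -0.79 for CNOT6, 0.64 for CNOT6L, 0.71 for CNOT7 and 0.42 for NOC. The 5 members that differed 2-fold between the controls became 3 with quantile normalization and 1 with normexp, again with no share over all named genes given. The 13 members called between slide rows (3.35% of all probes higher) became 48 without scaling (13.5%) and 22 with normexp (5.49%). With shRNA against control as a second term they became 2 (1.95%). With 1 array left out they ranged from 0 without CNOT6L or CNOT7 shRNA (0.084% and 0.291%) to 27 without CNOT6 shRNA (4.69%). With the slide row as a block, as in all other alternatives run, limma called 0 members between shRNA and control arrays. Of 160 values of named genes under alternatives 10 changed sign, 9 without scaling and 1 with normexp. Leaving out 1 control could not change a sign, since these genes were chosen for lying on the same side of both controls. The count of 160 includes those values and is therefore not read as a measure of stability. The 75th percentile over probes above background on all arrays, and medians with the dim member included, were added after the data were seen. The cause of these changes was not tested. Signal over background limits what can be said of COX7B2 and of the dim complex IV isoforms.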
